A study of Rattus norvegicus with 27 samples.

Results

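Levels of 10 neuropeptide receptor genes were followed across 27 rats in the medial prefrontal cortex (mPFC). The genes were Npy1r, Npy2r and Npy5r, whose receptors bind neuropeptide Y, Sstr1, Sstr2, Sstr3 and Sstr4 for somatostatin, Cckbr for cholecystokinin, Vipr1 for vasoactive intestinal peptide, and Tacr3 for neurokinin B. They were chosen by name, as the rows of the count table whose NCBI gene ID carries one of these symbols in rat, and make up 10 of the 36865 rows. All 10 had a row and all had a mean count of at least 10 reads, the minimum used here for a test, as did 11730 rows in all.

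The study asked which transcripts follow trait anxiety, scored over repeated behavioral tests. The 27 adult male Wistar rats were sampled in a resting state after the test battery, and they form 1 group with no control group, 1 library per rat. The sample labels name learned helplessness as the treatment, while both the treatment protocol in the labels and the study's methods describe tests of anxiety and fear. The labels and the methods also differ in the section and the library kit, so the exact slab of tissue is uncertain. The methods give an age of 100 days for the male Wistar rats, which came from 2 cohorts, and the labels give no genotype beyond the Wistar stock. Anxiety scores of single rats were not used, and the comparisons below are those the counts allow, namely the level of each receptor gene, its spread between rats, and how the genes moved together.

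Neuropeptides are stored in dense-core vesicles and act on G protein-coupled receptors of neighboring cells. Receptors for neuropeptide Y and somatostatin couple to Gi proteins, which lower cyclic AMP and open inwardly rectifying potassium channels, and so quiet neurons. The cholecystokinin B receptor and the neurokinin B receptor couple to Gq proteins and excite neurons, and the vasoactive intestinal peptide receptor couples to Gs and raises cyclic AMP.

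The total count per library was 4907255 to 12771309, with a median of 8168801, so that 3 counts stand for 6.11e-05% of the smallest library and 2.35e-05% of the largest. Both floors allow for counting error alone. Totals split by library number, with 4907255 to 8568317 in the 16 libraries up to number 31 and 9404220 to 12771309 in the 11 libraries from number 32. The labels do not say what these sets of libraries are, and the 2 cohorts of rats were not matched to them. Values are normalized counts, the reads of a gene divided by DESeq2's size factor of the library, and log2 values are log2(normalized count + 1). Transcript lengths were not used, so levels were not ranked between genes. Every marker gene of GABAergic interneurons, upper-layer and deep-layer excitatory neurons, oligodendrocytes, astrocytes and the 5 other lists used below had reads in every library. Among the markers of striatal projection neurons, a cell type outside the cortex, Drd1 and Ppp1r1b are also made by cortical neurons, and the summed level of the list was 1393 to 2189.8 normalized counts. Library 3 stood apart. It had the highest summed level of the oligodendrocyte markers, which include the myelin genes Mbp and Mog, 56082 normalized counts against a median of 25153. Its summed level was also the highest for the endothelial (2572) and striatal (2189.8) markers and the lowest for the GABAergic (3988) and upper-layer (3445) ones. The results below that library 3 moves most are given with and without it.

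Sequences just upstream of the genes are shown for 4 members on which the results turn. They are the neighboring genes Npy1r and Npy5r, and Sstr2 and Tacr3, which followed the marker genes of excitatory neurons. Each run holds the 250 bases before the start of the gene in RefSeq (GRCr8), written 5′ to 3′ on the strand of the gene. Capitals mark matches to 5 motifs searched on both strands, the cyclic AMP response element (CRE) TGACGTCA, its core TGACG, which also matches within a whole CRE, the TATA box as TATAAA, the CCAAT box by its name, and the GC box as GGGCGG. The Npy1r run is from the minus strand and the other 3 runs are from the plus strand.
Npy1r, chr16:27813388-27813637: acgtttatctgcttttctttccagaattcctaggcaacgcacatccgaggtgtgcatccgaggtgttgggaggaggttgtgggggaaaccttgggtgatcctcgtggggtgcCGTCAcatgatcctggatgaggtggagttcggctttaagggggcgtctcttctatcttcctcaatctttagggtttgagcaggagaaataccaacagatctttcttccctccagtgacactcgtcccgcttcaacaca
Npy5r, chr16:27821805-27822054: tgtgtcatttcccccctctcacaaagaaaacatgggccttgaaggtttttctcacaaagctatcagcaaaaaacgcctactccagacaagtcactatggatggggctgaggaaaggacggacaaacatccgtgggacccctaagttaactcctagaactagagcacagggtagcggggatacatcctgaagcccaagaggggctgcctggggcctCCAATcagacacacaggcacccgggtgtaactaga
Sstr2, chr10:99163103-99163352: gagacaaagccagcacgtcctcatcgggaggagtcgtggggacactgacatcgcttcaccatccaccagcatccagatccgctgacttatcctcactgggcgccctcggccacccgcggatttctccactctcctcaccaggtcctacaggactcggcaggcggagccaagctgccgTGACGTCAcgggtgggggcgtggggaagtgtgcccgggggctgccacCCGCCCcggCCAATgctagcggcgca
Tacr3, chr2:225940247-225940496: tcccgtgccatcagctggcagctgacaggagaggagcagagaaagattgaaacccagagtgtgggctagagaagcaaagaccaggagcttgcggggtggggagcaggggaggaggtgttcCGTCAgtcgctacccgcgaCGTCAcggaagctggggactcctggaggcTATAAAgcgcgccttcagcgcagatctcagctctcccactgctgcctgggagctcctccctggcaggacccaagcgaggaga

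All 10 genes matched an entry among 33469 RefSeq promoters. The whole CRE stood in the run of 1 member, Sstr2, and in 1.59% of all promoters of this length. The core TGACG stood in 5 members, Npy1r, Sstr1, Sstr2, Vipr1 and Tacr3, against 18.2% of all. TATAAA was found in Tacr3 alone of the 10, against 12.9% of all. CCAAT stood in 6 members, Npy2r, Npy5r, Sstr1, Sstr2, Sstr4 and Vipr1, against 34% of all, and GGGCGG in 3, Cckbr, Sstr2 and Vipr1, against 30.5%. The Sstr3 run held none of the 5. A match describes the letters and was not tested as a binding site. Npy1r and Npy5r lie beside each other on chromosome 16 and are transcribed in opposite directions, and the motifs of their runs differed, TGACG in Npy1r and CCAAT in Npy5r.

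The receptors for neuropeptide Y differed widely in their number of reads. Npy1r (gene ID 29358) encodes the postsynaptic receptor through which the peptide lowers the activity of pyramidal cells. It had 389 ± 50.9 normalized counts (SD, n = 27), from 291 in library 5 through a median of 396 to 484 in library 18, on 226 to 669 reads per library. Npy5r (gene ID 25340), its neighbor on the chromosome and likewise a postsynaptic receptor, had 103 ± 15.6 normalized counts (SD, n = 27), from 79.6 in library 6 through a median of 101 to 157 in library 53, on 46 to 199 reads. The highest value of Npy5r stood off from the next, 126 in library 20. Npy2r (gene ID 66024) encodes an autoreceptor on nerve endings. It had only 4 to 40 reads per library, which is 12.6 ± 5.19 normalized counts (SD, n = 27), from 4.36 in library 42 through a median of 11.6 to 26.8 in library 43. At these counts, the 6.15-fold range of Npy2r held a large part of counting noise. Of the same family, Npy4r had 0 or 1 read per library.

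Of the somatostatin receptors, Sstr1 (gene ID 25033) had 673 ± 79.2 normalized counts (SD, n = 27), from 469 in library 51 through a median of 685 to 828 in library 17, on 397 to 1051 reads. Sstr2 (gene ID 54305), which encodes a receptor on the cell body and dendrites of neurons, had 226 ± 41.3 normalized counts (SD, n = 27), from 127 in library 35 through a median of 217 to 307 in library 9, on 120 to 362 reads. Its lowest library stood apart, since the next was library 24 with 177. Sstr3 (gene ID 171044), the receptor found in the primary cilium of neurons, had 207 ± 27.9 normalized counts (SD, n = 27), from 144 in library 3 through a median of 209 to 268 in library 32, on 94 to 382 reads. Sstr4 (gene ID 25555) had 83.0 ± 12.7 normalized counts (SD, n = 27), from 54.1 in library 19 through a median of 82.5 to 104 in library 22, on 44 to 141 reads. The family member Sstr5 had at most 4 reads in any library. Sstr2 overlaps the gene Slc39a11, which had 1417 reads over all libraries, in the RefSeq annotation. The strandedness of the counting is not given in the sources used here, so reads of the overlap cannot be told apart.

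Cckbr, Vipr1 and Tacr3 belong to 3 other receptor families. Cckbr (gene ID 25706), the main cholecystokinin receptor of the brain, had 549 ± 83.5 normalized counts (SD, n = 27), from 387 in library 3 through a median of 531 to 712 in library 54, on 253 to 917 reads. Its annotation overlaps that of LOC108349007, for which the table has no row. Vipr1 (gene ID 24875), which encodes a receptor that also binds the pituitary adenylate cyclase-activating peptide, had 228 ± 21.3 normalized counts (SD, n = 27), from 187 in library 19 through a median of 226 to 265 in library 51, on 119 to 360 reads. It was the member with the smallest coefficient of variation (CV, the SD as a share of the mean), 9.38%. Tacr3 (gene ID 24808), the receptor of neurokinin B, had 126 ± 36.3 normalized counts (SD, n = 27), from 39.8 in library 3 through a median of 118 to 207 in library 13, on 26 to 239 reads. The lowest library was far below the second lowest, 75 in library 19, and without it the SD of log2 values of Tacr3 was 0.34 in place of 0.46. In bulk tissue, fewer cells that express a receptor and less of its RNA per cell cannot be told apart.

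**Figure D1:**
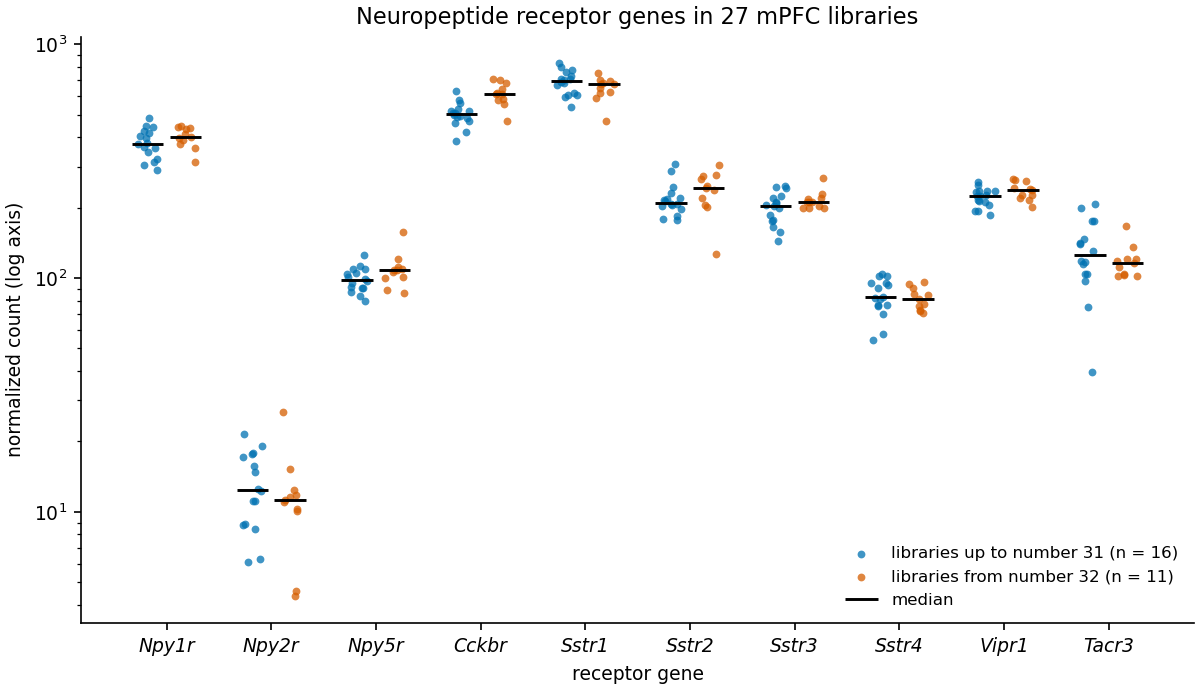
Normalized counts (log axis) of the 10 receptor genes, 1 point per rat, blue for the 16 libraries up to number 31 and orange for the 11 from number 32, with the median of each as a black line. Npy2r spreads from 4.36 to 26.8, the single low point of Tacr3 is library 3 with 39.8, and only Cckbr differs between the sets by the test.

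Some rats were low for many receptors. Library 3 was the lowest of all for Cckbr, Sstr3 and Tacr3 and among the lowest 5 libraries for 8 of the 10 members. Library 19 was the lowest for Sstr4 and Vipr1 and among the lowest 5 for 6 members. Library 12 was among the highest 5 for 5 members. No library was the highest for more than 1 member. Library 51 was both the lowest for Sstr1 and the highest for Vipr1. The oligodendrocyte markers were high in library 3, but not in library 19, which had a summed level of 22164 normalized counts. Library 3 also had the lowest mean z scores of the GABAergic (-1.60) and upper-layer (-1.78) markers and the highest of the endothelial markers (1.76). Library 19 stood near the edge for other lists. Its mean z score of the GABAergic markers, -0.790, was the lowest but for library 3, that of the meningeal fibroblast markers, 1.54, was the highest but for library 24, and that of the upper-layer markers was -0.643. The part of these markers in the low receptor levels of libraries 3 and 19 was not tested.

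The next question was how much of the spread between rats counting alone could give. All 10 members varied beyond counting noise (chi-square test of dispersion over a Poisson model, Benjamini-Hochberg adjusted p = 0.00422 or lower), as did 89.8% of all tested genes, so the share in the receptors was near that of the background. Counting gave 8.1% of the variance of Cckbr, 9.78% of that of Tacr3 and 11% of that of Sstr1. For these 3 genes most of the spread lay beyond counting. Counting noise held a larger share in Sstr4 (52.7%), Vipr1 (51.3%), Npy2r (47.8%) and Npy5r (43.6%). For Sstr3, Npy1r and Sstr2 it was 27.3%, 15.4% and 13.6%.

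The SD of log2 values had a median of 0.21 over the 10 members and 0.19 over all tested genes. It was 0.57 for Npy2r and 0.46 for Tacr3, where 94.9% and 90.1% of tested genes had a smaller one. Vipr1 had the smallest of the members, 0.14, with 25.2% of tested genes below it. The biological coefficient of variation (BCV) of edgeR, which takes counting noise out and can be set against genes of like abundance, gave the same order at the top. Tacr3 had a BCV of 26.1% where the trend of its abundance was 16.5%, and Npy2r 30.7% where the trend was 24.4%. Sstr2 also lay above its trend, with 16.7% against 14.4%. Vipr1, at 7.69% against 14.3%, lay below it. In all, 6 of the 10 members were under the trend, against 73.7% of all genes.

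**Figure D2:**
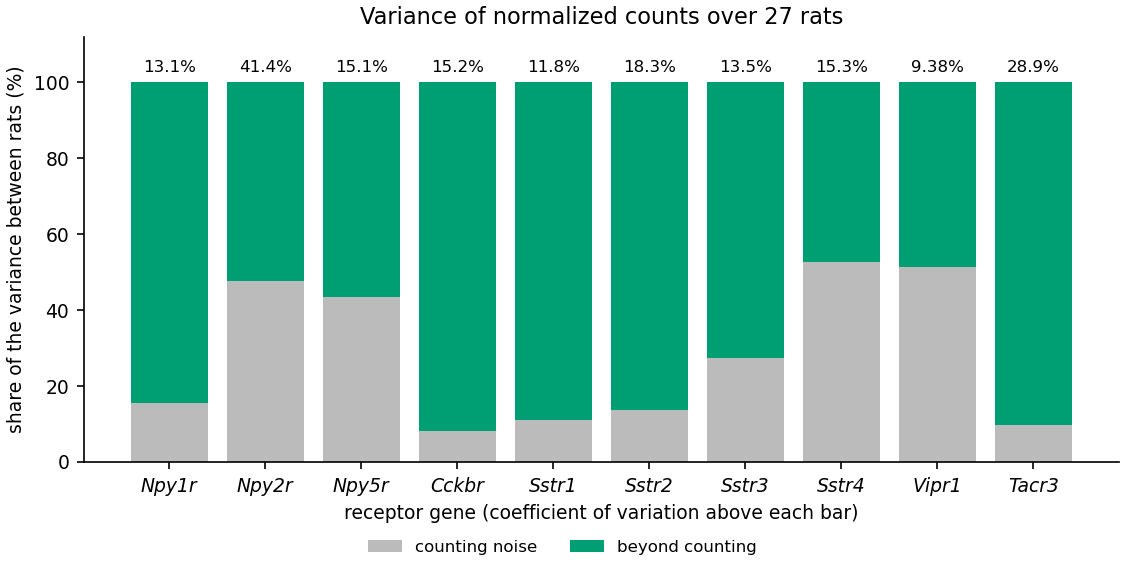
Share of the variance of normalized counts over 27 rats (percent) given by counting noise (gray) and left beyond it (green) for each receptor gene, with the CV above each bar. The gray part is smallest in Cckbr, 8.1%, and largest in Sstr4, 52.7%, and the CV runs from 9.38% in Vipr1 to 41.4% in Npy2r.

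The level of 1 receptor gene differed between the library number sets. In the libraries up to number 31, Cckbr had 504 ± 57.6 normalized counts (SD, n = 16), with a lowest value of 387, a median of 503 and a highest of 632. From number 32 it had 616 ± 70.5 (SD, n = 11), with 468, 614 and 712. The sets overlapped, but the median from number 32 lay near the top of the libraries up to number 31. The log2 change was 0.29 ± 0.06 (SE), a fold of 1.22, and it passed edgeR's quasi-likelihood test (Benjamini-Hochberg adjusted p = 0.00139). Over all genes, 8.85% were higher and 9.18% lower from number 32, so 1 of 10 receptors called was near the background. Without library 3 it was 0.28 (edgeR adjusted p = 0.00118). Among the cell type and activity markers, the vesicular GABA transporter gene Slc32a1 (log2 change 0.22 ± 0.05) and the deep-layer factor Tbr1 (0.28 ± 0.09) were also called higher from number 32, and the activity gene Junb (-0.34 ± 0.12) lower. Over the 27 libraries, Cckbr had rho = 0.480 with Slc32a1, 0.444 with Tbr1 and -0.142 with Junb. Without library 3 these values were 0.417, 0.377 and -0.0462. Both sets are pooled in them, and the markers were named because they differ between the sets, so the set difference itself enters each rho. The part of these markers in the difference of Cckbr was not tested. Depth, cohort and any other property that may differ between the sets cannot be told apart here.

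The other 9 receptors did not pass this test, with adjusted p from 0.245 to 0.854. Their log2 changes were 0.08 ± 0.07 (SE) for Npy1r, 0.13 ± 0.08 for Npy5r and -0.14 ± 0.23 for Npy2r. Among the somatostatin receptors, they were -0.09 ± 0.06 for Sstr1, 0.12 ± 0.10 for Sstr2, 0.10 ± 0.07 for Sstr3 and -0.03 ± 0.09 for Sstr4. Vipr1 had 0.09 ± 0.05 and Tacr3 -0.15 ± 0.15. Without libraries 12 and 20, which earlier results of these data found high in ribosomal RNA, the changes were -0.06 for Tacr3, -0.09 for Npy2r and -0.02 for Sstr4, and without library 3 that of Tacr3 was -0.20. The wide errors of Npy2r and Tacr3 leave room for changes as large as that of Cckbr in either direction or, for Tacr3, in the lower direction.

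**Figure D3:**
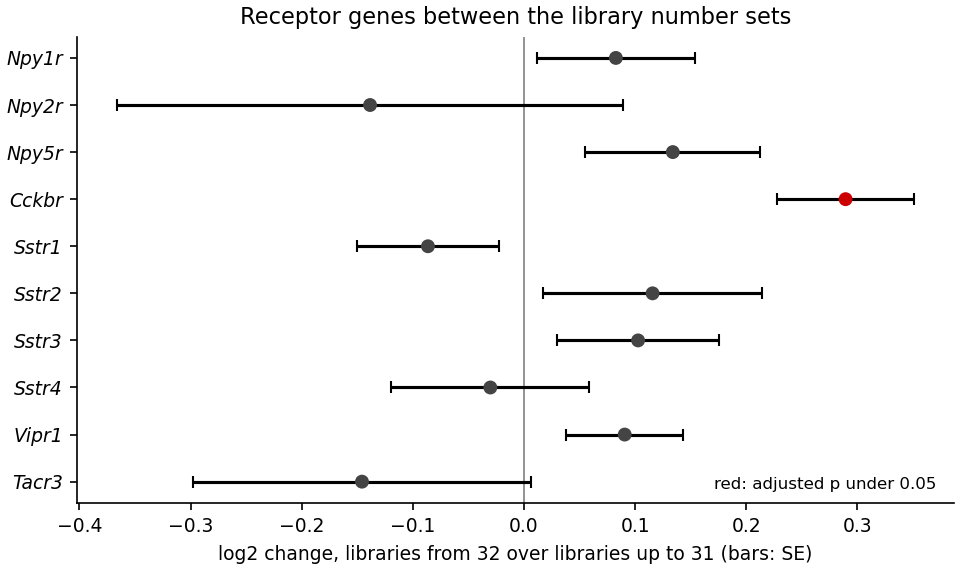
Log2 change of each receptor gene in the 11 libraries from number 32 over the 16 up to number 31 (point, with its SE as a bar), from edgeR. Cckbr (red) lies at 0.29 and is the only one past the threshold, and the bars of Npy2r, Sstr4 and Tacr3 cross 0.

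Tacr3 ranged up to number 31 from 39.8 to 207 normalized counts, and from number 32 from 102 to 168. The SD of its log2 values was 0.58 and 0.21, a ratio of 2.7 (two-sided permutation test, p = 0.0284, adjusted over the 10 tests p = 0.213), so the difference in spread did not pass. This test was chosen after seeing the data. Without library 3 the ratio was 1.89 (permutation p = 0.0576). Sstr3 had the next largest ratio, with SDs of 0.23 and 0.12, a ratio of 1.88 (permutation p = 0.0426, adjusted p = 0.213). Without library 3 it was 1.65 (permutation p = 0.0924), below the 1.77 of Sstr4.

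Receptor genes were then compared with each other across rats, over the 45 pairs of the 10 genes, by Spearman's rho and Pearson's r of log2 values (two-sided, 100000 permutations for each). None of the 45 pairs passed for rho at an adjusted p under 0.05, while 11 positive and 0 negative pairs had an unadjusted permutation p under 0.05, and r called 1 pair. Of all pairs of tested genes, 9.52% had a rho as high as the weakest of those 11, and 8.98% one as low in the negative direction. Of the 45 pairs, 33 had a positive rho (73.3%, against 49.3% of all pairs of tested genes), with a median of 0.17, and the pairs share genes and libraries. Without library 3, 28 of them were positive (62.2%), with a median of 0.0940. Counting noise limits these values. If 2 genes moved together fully beyond counting, the r left would be about 0.48 to 0.911 depending on the pair.

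The highest pair joined the ciliary somatostatin receptor and the neurokinin B receptor. Sstr3 and Tacr3 had a rho of 0.565 (p = 0.00262 by permutation, 0.061 after adjustment) and an r of 0.697 (p = 9.0e-05 and 0.00405, likewise). Pearson's r was 0.553 without the 2 libraries farthest from the median of Sstr3, which were libraries 3 and 5. Within the sets, the pair had rho = 0.694 in the 16 libraries up to number 31 and 0.600 in the 11 from number 32. With the mean of each set removed, rho was 0.704 (permutation test, adjusted p = 0.0036), and without library 3 it was 0.513 (adjusted p = 0.135), with an r of 0.557 (adjusted p = 0.0716). Both genes were lowest in library 3, with 144 and 39.8 normalized counts.

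The neighbors Npy1r and Npy5r, whose upstream runs are printed above, followed next, with a rho of 0.557 (p = 0.00271 by permutation, 0.061 after adjustment) and an r of 0.519 (p = 0.0046 and 0.0517, likewise). Pearson's r was 0.549 without the 2 libraries farthest from the median of Npy1r. They had rho = 0.626 in the 16 libraries up to number 31 and 0.145 in the 11 from number 32. By contrast, the autoreceptor Npy2r had rho = 0.305 with Npy1r and -0.0433 with Npy5r (-0.117 without library 3), on few reads. Npy1r also had rho = 0.52 with Sstr1 and 0.521 with Sstr3 (permutation test, adjusted p = 0.0709 for both), and Sstr1 had 0.493 with Tacr3 (adjusted p = 0.0904).

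The 4 somatostatin receptor genes had rho of both signs among themselves. Sstr1 and Sstr4 had rho = 0.447 (permutation p = 0.0194 and adjusted p = 0.116), with 0.597 up to number 31 and -0.191 from number 32, and an r of 0.452, or 0.431 without libraries 28 and 51. Sstr2 and Sstr3 had the lowest rho of the 45 pairs, -0.339 (permutation p = 0.0843, adjusted p = 0.316), and -0.468 and -0.382 within the sets. Pearson's r of this pair was only -0.128 (permutation p = 0.522), and -0.0832 without libraries 9 and 35. Without library 3, rho was -0.464 (permutation test, adjusted p = 0.135) and r was -0.272. The other 4 pairs of the family lay between -0.198 for Sstr3 and Sstr4 (-0.331 without library 3) and 0.286 for Sstr2 and Sstr4. Sstr2 instead had its highest rho with Vipr1, 0.449 (permutation p = 0.0206, adjusted p = 0.116), with an r of 0.538 (adjusted p = 0.0517) and 0.511 without libraries 9 and 35.

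**Figure D4:**
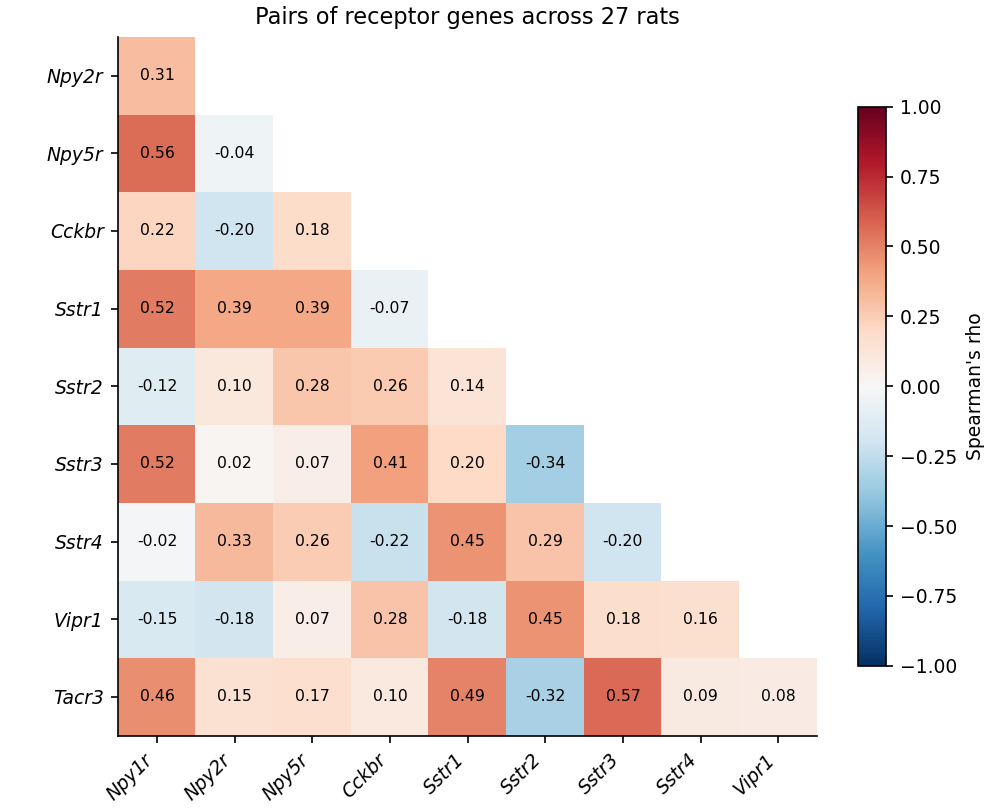
Spearman's rho of log2 values over 27 rats for the 45 pairs of receptor genes, red for positive and blue for negative, with the value in each square. The darkest red squares are Sstr3 with Tacr3 (0.565) and Npy1r with Npy5r (0.557), and the darkest blue is Sstr2 with Sstr3 (-0.339).

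Each receptor was set against the gene of its own peptide. Of 10 planned pairs, 6 could be computed, since the Sst row had 0 reads in all 27 libraries and the 4 somatostatin receptors were left without their ligand. Somatostatin is a marker of many cortical interneurons, so this row cannot be read as a level of the gene. Cort, which encodes the related peptide cortistatin, had 151 ± 27.5 normalized counts (SD, n = 27). Npy had 272 ± 70.6, Cck 7054 ± 876, Vip 587 ± 93.5 and Tac3, the gene of neurokinin B, 129.8 ± 19.9. Of peptides that bind these receptors beside their main ligand, Adcyap1 had 149 ± 19.3 and Tac1 309 ± 56.0, while Pyy and Gast had at most 7 and 5 reads in a library and Ppy had 0 in all.

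No pair passed for rho at an adjusted p under 0.05, 1 had an unadjusted permutation p under 0.05, and r called that 1. Vip and Vipr1 had a rho of -0.464 (p = 0.0157 by permutation, 0.094 after adjustment) and an r of -0.527 (p = 0.00468 and 0.0281, likewise). Pearson's r was -0.478 without the 2 libraries farthest from the median of Vip, and the pair had rho = -0.197 in the 16 libraries up to number 31 and -0.845 in the 11 from number 32. The difference between the sets was not tested. With the mean of each set removed, rho was -0.533 (permutation test, adjusted p = 0.0286). Npy had rho = 0.378 with Npy1r (permutation p = 0.0523, adjusted p = 0.157), 0.165 with Npy5r and 0.139 with Npy2r, and without library 3 the values with Npy5r and Npy2r were 0.0988 and 0.0557. Cck had 0.205 with Cckbr, and Tac3 had 0.22 with Tacr3, with adjusted p of 0.456 for both by the permutation test. The values of Cck and Cckbr differed in sign between the sets, with rho = -0.112 up to number 31 and 0.518 from number 32, a difference that was not tested. Without library 3, this pair had rho = 0.349 (permutation test, adjusted p = 0.181) and r = 0.378.

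Tacr3 followed the markers of upper-layer excitatory neurons and Sstr2 those of deep-layer ones. Each marker list was summarized per rat as a score, the mean z score of the log2 values of its genes, and the 10 receptors were set against 10 scores, which gave 100 relations. For rho, 6 relations passed, 4 positive and 2 negative, and involved Tacr3, Sstr2 and Sstr1. Over all tested genes and the same scores, 1.28% of relations were as high as the weakest called one and 0.323% as low in the negative direction.

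Tacr3 rose with the markers of upper-layer excitatory neurons, with a rho of 0.896 and an r of 0.894 (for each, permutation p = 1.0e-05, the smallest the permutations can give, and 0.00100 after adjustment). Of the 11725 genes set against this score, none had a stronger rho. Pearson's r was 0.843 without the 2 libraries farthest from the median score, 3 and 9. The relation was rho = 0.926 in the 16 libraries up to number 31 and 0.818 in the 11 from number 32, and rho was 0.87 without library 3. Each of the 5 markers had a positive rho, with rho = 0.722 for Rasgrf2, 0.596 for Lamp5, 0.547 for Calb1, 0.527 for Cux2 and 0.446 for Rorb. In library 3, which had the lowest score, the summed level of the list was 3445 normalized counts against a median of 4352.

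Sstr2 rose with the markers of deep-layer excitatory neurons, with a rho of 0.683 (p = 1.0e-04 by permutation, 0.00367 after adjustment) and an r of 0.669 (p = 9.0e-05 and 0.0045, likewise). Pearson's r was 0.595 without the 2 libraries farthest from the median score, 32 and 35. The relation was rho = 0.641 in the 16 libraries up to number 31 and 0.609 in the 11 from number 32, and rho was 0.662 without library 3. Bcl11b and Fezf2, transcription factors of neurons that project below the cortex, had rho = 0.631 and 0.574 with Sstr2. The remaining markers had 0.46 for Tbr1, 0.44 for Foxp2, 0.298 for Tle4 and 0.0348 for Crym. With Tacr3, the same markers ran from -0.548 for Foxp2 to 0.214 for Crym. Sstr2 also rose with the score of striatal projection neurons, given next, and whether the 2 relations are separate was not tested.

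The markers of striatal projection neurons moved in opposite directions with these 2 receptors. For Tacr3 they had a rho of -0.708 (p = 0.00011 by permutation, 0.00367 after adjustment) and an r of -0.514 (p = 0.00602 and 0.0669, likewise), and for Sstr2 a rho of 0.629 (p = 0.000600 by permutation, 0.015 after adjustment) and an r of 0.535 (p = 0.00393 and 0.0491, likewise). Without the 2 libraries farthest from the median score, 47 and 51, r was -0.567 and 0.501. Within the sets, Tacr3 had rho = -0.568 in the 16 libraries up to number 31 and -0.855 in the 11 from number 32, and Sstr2 had 0.391 and 0.745. With the mean of each set removed, Sstr2 no longer passed (rho = 0.559, permutation test, adjusted p = 0.053). Its strongest marker was the dopamine receptor gene Drd1, with rho = 0.753, followed by 0.496 for Rgs9, 0.368 for Drd2, 0.342 for Ppp1r1b and 0.305 for Adora2a. For Tacr3 the strongest was Rgs9, with -0.747. Sstr3 had rho = -0.524 with this score (permutation test, adjusted p = 0.0707), and -0.681 (adjusted p = 0.0065) with the set means removed. Without libraries 12 and 20 this rho was -0.59 (permutation test, adjusted p = 0.0476).

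The remaining called relations were weaker. Tacr3 was lower where oligodendrocyte markers were higher, with a rho of -0.571 (p = 0.00209 by permutation, 0.0348 after adjustment) and an r of -0.596 (p = 0.00103 and 0.0242, likewise). Pearson's r fell to -0.372 without libraries 3 and 32, and without library 3 alone rho was -0.515 (permutation test, adjusted p = 0.124) and no longer passed, as was so without libraries 12 and 20 (rho = -0.555) and with the set means removed (rho = -0.529). Within the sets, it had rho = -0.459 in the 16 libraries up to number 31 and -0.736 in the 11 from number 32. Sstr1 rose with the upper-layer score, with a rho of 0.579 (p = 0.00186 by permutation, 0.0348 after adjustment) and an r of 0.507 (p = 0.00705 and 0.0705, likewise), and r was 0.538 without libraries 3 and 9. It had rho = 0.735 in the 16 libraries up to number 31 and 0.109 in the 11 from number 32, and without library 3 rho was 0.506 (permutation test, adjusted p = 0.124). It also no longer passed under total counts (rho = 0.478), without libraries 12 and 20 (rho = 0.509), with the set means removed (rho = 0.56) and by r. With the settings reported, Npy1r, Npy2r, Npy5r, Cckbr, Sstr3, Sstr4 and Vipr1 had no relation called for rho. The nearest was Npy5r with the deep-layer score (rho = 0.543, permutation test, adjusted p = 0.0577). No relation with the scores of GABAergic interneurons, astrocytes, microglia, meningeal fibroblasts, endothelial cells or activity genes passed for rho. By r, the GABAergic score passed with Tacr3 (r = 0.712, permutation test, adjusted p = 0.0117), where rho was 0.436 and r without libraries 3 and 51 was 0.624. It also passed by r with Vipr1 (r = 0.550, permutation test, adjusted p = 0.0415), where rho was 0.368 and r without the same libraries was 0.370. Sstr3 passed by r with the upper-layer score (r = 0.586, permutation test, adjusted p = 0.0242) and the oligodendrocyte score (r = -0.546, adjusted p = 0.0477). The corresponding rho was 0.44 and -0.300, and without the 2 libraries farthest from the median score, library 3 among them, r was 0.369 and -0.273. The part that the mix of tissue in each dissection has in these relations was not tested.

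**Figure D5:**
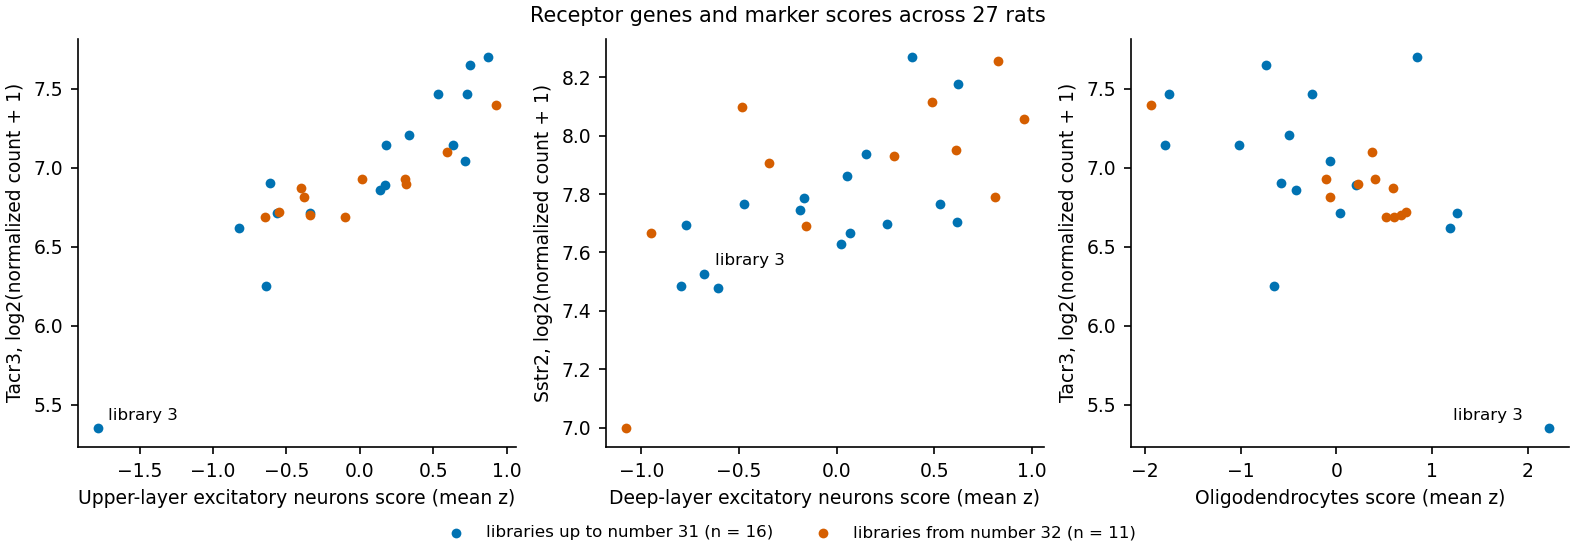
Log2 values of Tacr3 against the upper-layer score (left), Sstr2 against the deep-layer score (middle) and Tacr3 against the oligodendrocyte score (right), 1 point per rat, blue for libraries up to number 31 and orange for those from number 32. The points follow a line in the left panel (rho = 0.896), more loosely in the middle one (0.683), and library 3 lies at the far end of the left and right panels.

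The genes most like each receptor were found among all tested genes by rho of log2 values over the 27 libraries, with the mean of each library number set removed. These are given as a description, since they are the top of a long list. Tacr3 had the closest partners, Osbpl1a (rho = 0.944), Cobl (rho = 0.873) and Epha4 (rho = 0.866). Osbpl1a encodes a sterol-binding protein and Epha4 an ephrin receptor of axons and synapses. Sstr1 had Dnajc6 (rho = 0.863) and Snap91 (rho = 0.856) among its most alike, which both act in the recycling of synaptic vesicles. For Npy1r they were Lrfn5 (rho = 0.866), Slitrk5 (rho = 0.852) and Vopp1 (rho = 0.835), with Lrfn5 and Slitrk5 both synaptic adhesion molecules. Sstr3 had Rassf5 (rho = 0.847), Adra1b (rho = 0.819) and Ptgfrn (rho = 0.803), Adra1b being an adrenergic receptor. Cckbr had Dnajb5 (rho = 0.806), Rasd1 (rho = 0.723) and Arhgef3 (rho = 0.708), and Sstr2 had Drd1 (rho = 0.777), Smarca1 (rho = 0.749) and Nr4a3 (rho = 0.693), Nr4a3 being an activity-induced nuclear receptor. With the set means kept, the rho of Sstr2 with Nr4a3 was only 0.138.

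The other 4 receptors had partners as follows. Npy5r was most like Dhx36 (rho = 0.789), Uba6 (rho = 0.781) and Hectd2 (rho = 0.757), and Sstr4 like Dip2a (rho = 0.775), Thsd7b (rho = 0.774) and Rnf152 (rho = 0.761). Vipr1 had Phf20 (rho = 0.748), Smg6 (rho = 0.708) and Galnt7 (rho = 0.708), the Smg6 row being 1 of several loci of that gene, so its count is uncertain. With the set means kept, Galnt7 had rho = 0.415 with Vipr1, and Dip2a 0.589 with Sstr4. Npy2r, on the fewest reads, had the lowest values, Mmp16 (rho = 0.628), Thumpd3 (rho = 0.625) and Cul2 (rho = 0.623). These came mostly from the libraries up to number 31, with 0.721, 0.835 and 0.821 there against 0.382, 0.136 and 0.0818 from number 32. No receptor gene of the 10 was among the 3 most alike of another.

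The pathway around the receptors was read from lists of peptides, receptors of the same families, G proteins, potassium channels and other peptide receptors. Their counts stand beside those of all tested genes, of which 89.8% varied beyond counting noise, and 8.85% were higher and 9.18% lower in the libraries from number 32. Of the 7 peptide genes tested, all varied beyond counting noise and 0 differed between the library number sets by edgeR. Of the 4 tested receptors of the same families, Adcyap1r1 (1893 ± 177 normalized counts), Vipr2 (55.3 ± 11.4) and Tacr1 (53.5 ± 13.4) varied beyond counting noise and Tacr2 (10.7 ± 3.9) did not pass, and 0 differed between the sets. Cckar had at most 3 reads in any library, and Npy6r had no row.

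Among 10 G protein alpha subunits, 1 was higher and 2 lower in the libraries from number 32, against 8.85% higher and 9.18% lower over all genes. Gnal, of the stimulatory class, had a log2 change of 0.30 ± 0.07 (SE, edgeR adjusted p = 0.00396). The inhibitory subunits Gnai2 and Gnai3, through which neuropeptide Y and somatostatin receptors can signal, had -0.23 ± 0.06 (SE, edgeR adjusted p = 0.0111) and -0.18 ± 0.04 (SE, edgeR adjusted p = 0.00399). All 10 varied beyond counting noise, against 89.8% of all tested genes, from Gnas with 11191 ± 964 normalized counts to Gna14 with 76.5 ± 17.4. Of the 4 subunits of inwardly rectifying channels, normalized counts ran from 1879 ± 244 for Kcnj6 to 20.9 ± 5.85 for Kcnj5, 3 varied beyond counting noise, and 0 differed between the sets. Of 30 other peptide receptors, 19 were tested and 17 varied beyond counting noise. The neurotensin receptor gene Ntsr2, which is made by astrocytes, had 1418 ± 203 normalized counts and was the only one to differ between the sets, with 0.24 ± 0.06 (SE, edgeR adjusted p = 0.0077). Galr2 and Npffr2 were listed at 0 in every library.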

How the data were processed

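RNA from the mPFC of 27 rats was sequenced as single reads. The values are raw read counts per gene as the authors deposited them, without normalization, and all 27 columns were used. The submitters' processing notes name Trimmomatic, STAR and HTSeq, while versions, genome build and strandedness are not given in the sources used here. Symbols came from the RefSeq gene list of GRCr8, which named 28157 of 36865 rows with 99.7% of the counts, and 436 rows are 1 of several loci of a gene. The 10 members were each a single row. There were no molecular identifiers to mark copies of the same molecule, so floors and counting noise cover counting error only.

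Counts were normalized by the size factors of DESeq2 1.42.0, the tool of the study, with a pseudocount of 1 on the log2 scale. Spread beyond counting was tested by a chi-square dispersion test where the mean count was 10 or more. Library number sets were compared with edgeR 4.0.16 (filterByExpr, TMM, quasi-likelihood test) over all 11716 genes that passed its filter. The Benjamini-Hochberg method adjusted the p-values, and 0.05 was the threshold. Correlations used two-sided permutation tests with 100000 permutations, adjusted over the 45 pairs, the 6 peptide pairs or the 100 marker relations. The tests were checked on simulated counts. For edgeR, the simulation used the same dispersion for every gene and changes larger than that of any receptor. It therefore does not show the power of the test at the changes reported here. The p-values of edgeR and of the permutation tests rest on the spread between libraries, which the labels describe as separate animals. Those of the dispersion test are set against counting noise.

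Named genes are the members, the peptides and same-family receptors, the highest and lowest or differing genes of the other lists, the marker genes, and the 3 genes most alike each member, of which 1 is not reported here. The members and lists were chosen with earlier results of these data known. Alternatives were TMM or total counts, a pseudocount of 0.1, no filter on low counts, the DESeq2 Wald test, leaving out libraries 12 and 20 (high in 18S ribosomal RNA in earlier results), removing set means, and Pearson's r for the call. Promoters were the RefSeq bases before each start. Software was R 4.3.3, Python 3.11.15, matplotlib 3.10.9, pandas 2.3.3, scipy 1.17.1 and numpy 2.4.6.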

Additional observations from a re-analysis of the deposited data

How the results depend on the processing

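All 10 receptors varied beyond counting noise and only Cckbr differed between the library number sets under each alternative run. The number of receptor pairs called by the permutation test was 0 with the settings reported. It was 2 without libraries 12 and 20 (Npy1r with Sstr3 and Sstr3 with Tacr3), 3 with the mean of each library number set removed (Npy1r with Sstr1, Npy1r with Tacr3 and Sstr3 with Tacr3) and 1 by Pearson's r (Sstr3 with Tacr3). For peptides and receptors it was 1 with the set means removed and 1 by Pearson's r, in both cases Vip with Vipr1, in place of 0. The cause was not tested. The count of 6 called marker relations went from 4 with the set means removed, and 4 without library 3, to 8 by Pearson's r. Tacr3 with the upper-layer score and Sstr2 with the deep-layer score were called in each of these settings. Leaving out library 3 was an alternative chosen after seeing the data. No paired analysis was possible because the libraries form 1 group. Sstr1 with the upper-layer score was lost under total counts, without libraries 12 and 20, with the set means removed, without library 3 and by Pearson's r. Tacr3 with the oligodendrocyte score was lost without libraries 12 and 20, with the set means removed and without library 3. Sstr2 with the striatal score was lost with the set means removed, and Tacr3 with it by Pearson's r. All of these lost relations kept their direction. Sstr3 with the striatal score was gained without libraries 12 and 20 and with the set means removed. The relations gained by Pearson's r, with the GABAergic, upper-layer and oligodendrocyte scores, are named above. Counting noise limits Sstr4, Vipr1, Npy2r and Npy5r, where it held 43.6% to 52.7% of the variance.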
